A study of Mus musculus with 31 samples.

Results

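The genes described here are 10 components and feedback genes of the NF-kB pathway, followed in whole mouse lung through cigarette smoke, saline and LPS (lipopolysaccharide, a toxin from the outer membrane of Gram-negative bacteria). They are the subunit genes Nfkb1, Nfkb2, Rel and Relb, the IkB family genes Nfkbia, Nfkbiz and Bcl3, the ubiquitin-editing enzyme gene Tnfaip3, the TNF-induced gene Tnfaip2, and Socs3. They were chosen by name, and each was read from the probe set that carries its symbol alone and, where there were several, has the highest mean over all arrays. Of the 10 genes, 9 were measured, out of 19938 genes on the array, and all 9 were among the 14705 genes tested. Nfkb1 had no probe set with its name and was not analysed here.

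NF-kB is a family of dimeric transcription factors that inhibitor proteins of the IkB family hold in the cytoplasm. When LPS engages its receptor TLR4, the IKK kinase complex marks the inhibitors for destruction, and the freed dimers enter the nucleus and switch on cytokine and chemokine genes. Among the genes they switch on are their own inhibitors and subunits, so that the response carries its own brake. In the lung, this pathway is known for driving the recruitment of neutrophils after inhaled or instilled endotoxin.

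The mice were males, labelled 6 weeks of age, of the inbred strains AKR and C57 BL/6, the latter called C57 below, and they breathed room air or cigarette smoke. In each strain, mice given room air or smoke were then instilled intratracheally with LPS dissolved in saline, or with saline only, which makes 8 groups of 3 arrays, except AKR smoke LPS with 2. Mice of room air without instillation add 3 C57 arrays (6 weeks in the title), 3 from AKR (also 6 weeks) and 2 from AKR at 3 weeks, for 31 arrays in 11 groups. The titles give instilled mice 3 weeks of exposure and the series description gives them 6 weeks, so the exposure time is uncertain, and every smoke-exposed mouse was also instilled. The titles call the arrays biological replicates. The dose of LPS and the time from instillation to dissection are not given in the sources used here.

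The lung markers were high on every array, with log2 intensities from 13 to 13.8 for Sftpc (surfactant protein C of alveolar type 2 cells), 13.1 to 13.8 for Scgb1a1 (club cells) and 10.7 to 11.9 for Pecam1 (endothelium). The distributions fell into 2 sets, one of 18 arrays with medians from 6.96 to 7.1 and one of 13 arrays with medians from 6.8 to 6.9. All C57 arrays and AKR room air at 6 weeks belong to the larger set, and the remaining AKR arrays to the smaller. Instilled AKR and C57 arrays are therefore compared through their responses, each taken within a set. A pair of C57 arrays went against their labels in 2 genes that LPS induces, Saa3 (an acute-phase protein) and Cxcl2 (a neutrophil chemokine). Saa3 and Cxcl2 had log2 intensities of 12.47 and 11.11 on the one labelled C57 smoke saline 3, but 6.064 and 5.214 on the one labelled C57 smoke LPS 3. The other C57 arrays labelled LPS lay at or above 12.38 for Saa3, and the other C57 arrays without LPS lay at or below 6.374. The pair was kept under its labels, and results are also given without it.

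The members themselves showed the same split on that pair. On the array labelled C57 smoke saline 3, 9 of 9 members lay above every other C57 array without LPS, and 9 of 9 lay below every other C57 LPS array. On the array labelled C57 smoke LPS 3, 9 of 9 lay no higher than the highest of the other C57 arrays without LPS. The share of all genes placed in these ways was not counted. Since all groups share 1 estimate of the spread, the pair also widens the standard errors of comparisons it does not belong to.

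Instilled LPS raised nearly all of these genes in both strains. After room air, 9 of 9 members rose in AKR and 8 of 9 in C57, by a median difference of 1.81 and 1.49 on the log2 scale. The exception was Rel in C57, with a difference of 0.40. Across all genes tested with limma, 9.45% were higher in AKR and 11.5% in C57 at an adjusted p under 0.05, and the median differences were -0.04 and -0.01. Without the pair, the counts were again 9 of 9 and 8 of 9, against 11.8% and 15.2% of all genes. The LPS arrays lay above the saline arrays for 9 of 9 members in either strain, and 41% of all genes in C57 and 32.6% in AKR had no overlap between the same groups in one direction or the other.

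After smoke in AKR, 9 of 9 members rose too, by a median of 1.89, with 16.9% of all genes higher, or 18.6% without the pair. The arrays were again separate for 9 of 9 members, as they were for 58.2% of all genes with 2 LPS arrays. After smoke in C57, the result turned on the pair: with it, 0 of 9 members passed in limma and 0% of all genes were higher. An unadjusted p under 0.05 was found for 8 of 9, and for 1300 of the 14705 genes tested. Without the pair, 9 of 9 rose by a median of 1.59, against 10.9% of all genes. Leaving out only the array labelled C57 smoke LPS 3 also gave 9 of 9, in a fit where the share of all genes was not counted.

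**Figure D1:**
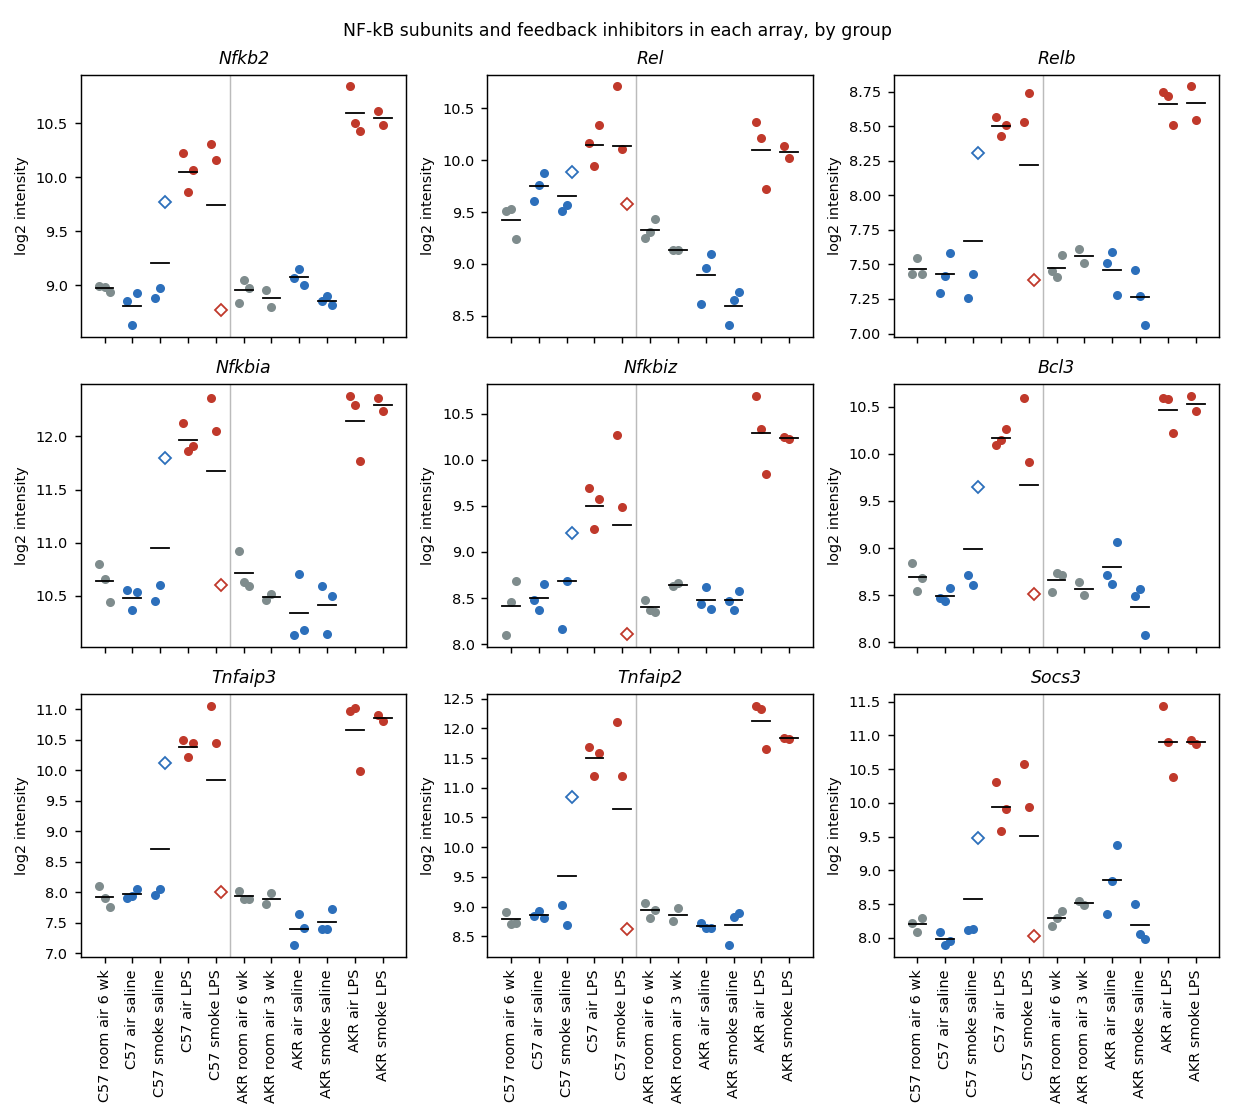
Log2 intensity of the 9 measured genes on each of 31 arrays, by group (C57 left of the grey line, AKR right). Grey points are room air alone, blue points saline and red points LPS, bars are group means over all arrays, and open diamonds are the arrays labelled C57 smoke saline 3 and C57 smoke LPS 3, which lie on the far side of their groups for every gene.

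Promoter sequence was at hand for 7 of the 10 genes, from RefSeq (build GRCm38.p6, 250 bases before to 50 bases after a transcription start). It was searched on both strands for the kB consensus, the 10-base motif that NF-kB dimers bind, and for TTCNNNGAA, the core bound by STAT factors. The kB consensus occurred in 6 of the 7 genes, all but Socs3, against 9.55% of the 27025 genes in the table. In Bcl3 the match lay just after the start. TTCNNNGAA occurred in Nfkb2 and Socs3, and likewise in 9.55% of genes. The stretches below lie upstream of a start and show 1 site for each of the other 6 genes, on the gene's own strand, with the matching bases in capitals. Those of Nfkb2, Tnfaip2 and Socs3 lie upstream of a start that is inside the gene's own coordinates. Nfkb2 and Tnfaip3 have further matches that are not shown.

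Nfkbia, chr12:55492648-55492737, minus strand: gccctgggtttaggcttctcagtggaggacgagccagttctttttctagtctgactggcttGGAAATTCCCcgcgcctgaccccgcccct
Tnfaip3, chr10:19015411-19015500, minus strand: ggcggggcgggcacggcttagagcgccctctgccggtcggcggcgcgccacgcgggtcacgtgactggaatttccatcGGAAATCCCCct
Rel, chr11:23771011-23771100, minus strand: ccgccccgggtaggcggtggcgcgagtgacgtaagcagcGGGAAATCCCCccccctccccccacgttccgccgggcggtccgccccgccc
Nfkb2, chr19:46304689-46304718, plus strand: gatcgtcacGGGAATTCCCCccctcggggg
Tnfaip2, chr12:111442627-111442656, plus strand: gactattttaGGAGGGCCCCtccagggtcg
Socs3, chr11:117969502-117969531, minus strand: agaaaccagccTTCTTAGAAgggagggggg

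The capitals in Rel and Nfkb2 span a pair of overlapping matches, and those in Socs3 mark the STAT core. The match in Nfkbia, GGAAATTCCC, and the one in Tnfaip3, GGAAATCCCC, lie within the last 90 bases before the start. A match is a run of letters, and binding was not measured in these samples.

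Among the subunits, Nfkb2 and Relb rose in both strains after air, and Rel rose in AKR alone when saline was the reference, a difference between strains that did not pass its own test. Nfkb2 (probe set 10463599, chr19:46300994-46312400) encodes the precursor of the DNA-binding partner of RelB, and the precursor itself can act as an inhibitor. Its log2 intensity was 8.85, 8.63 and 8.93 on the C57 air saline arrays and 10.22, 9.86 and 10.07 on the C57 air LPS arrays. In AKR it was 9.07, 9.15 and 9.0 with saline and 10.84, 10.50 and 10.43 with LPS. The groups did not overlap in either strain. The difference was 1.25 ± 0.25 in C57 (2.37-fold, adjusted p = 0.0047) and 1.51 ± 0.25 in AKR (2.86-fold, adjusted p = 0.00036), both on the log2 scale with the standard error of the limma fit, as for all differences that follow. After smoke the difference was 1.68 ± 0.28 in AKR (adjusted p = 0.00017) and, without the pair, 1.31 ± 0.13 in C57 (adjusted p = 1.5e-07, limma).

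Relb (probe set 10560575, chr7:19606217-19629438), the subunit of the alternative pathway, was 7.29, 7.42 and 7.58 with saline and 8.57, 8.43 and 8.51 with LPS after air in C57. The AKR values were 7.51, 7.59 and 7.28 with saline and 8.75, 8.72 and 8.51 with LPS. The LPS arrays formed a narrow band in both strains, clear of the saline arrays. The difference was 1.07 ± 0.24 in C57 (2.1-fold, adjusted p = 0.0069) and 1.20 ± 0.24 in AKR (2.3-fold, adjusted p = 0.0016). After smoke in AKR it was 1.41 ± 0.27 (adjusted p = 0.00055, limma).

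Rel (probe set 10384725, chr11:23736847-23770969) encodes c-Rel, a subunit known best from lymphocytes. Its log2 intensity in C57 was 9.61, 9.76 and 9.88 with saline and 10.17, 9.94 and 10.34 with LPS after air. In AKR it was 8.61, 8.96 and 9.10 with saline and 10.37, 10.21 and 9.72 with LPS. The LPS arrays of both strains covered much the same range, while every C57 saline array lay above every AKR saline array. Levels of instilled AKR and C57 arrays come from different sets of arrays, and that comparison of levels was not tested. The LPS arrays were above the saline arrays in both strains, narrowly so in C57, where the highest saline array was at 9.88 and the lowest LPS array at 9.94. The difference was 0.40 ± 0.20 in C57 (1.32-fold, adjusted p = 0.17) and 1.21 ± 0.20 in AKR (2.31-fold, adjusted p = 0.00032), and without the pair the C57 value had an adjusted p of 0.081.

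Room air alone gave another picture of the same gene. Rel was 9.51, 9.53 and 9.24 in C57 room air at 6 weeks and 9.25, 9.31 and 9.43 in AKR room air at 6 weeks, 2 groups of the same set of arrays that overlap. The AKR arrays at 3 weeks were both at 9.13. Relative to room air alone, the C57 saline arrays were all higher, by 0.32 ± 0.20 (adjusted p = 0.93), and the AKR saline arrays all lower than the 3-week arrays, by a difference of -0.24 ± 0.22 (adjusted p = 0.61), neither of which passed. With room air alone as the reference, a comparison chosen after the values were seen, Rel rose with LPS in both strains, by 0.72 ± 0.20 in C57 (1.65-fold, adjusted p = 0.014) and 0.97 ± 0.22 in AKR (1.96-fold, adjusted p = 0.0083). The reference was the 6-week group in C57 and the 3-week group in AKR. With that reference 9 of 9 members rose in either strain, against 15.1% of all genes in C57 and 5.54% in AKR.

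On the saline arrays, the mean of the B cell markers, like Rel, lay above the room air arrays in C57 and below the 3-week room air arrays in AKR. The same held for the T cell, the neutrophil, and the monocyte and macrophage markers. Of all genes, 15.9% in C57 and 41.7% in AKR had no overlap between these groups in one direction or the other. Dendritic cell markers lay below room air in both strains, and alveolar macrophage markers overlapped with it. The B cell markers are given as the mean log2 value of the 8 of 9 listed that were tested, relative to all arrays. They lay between 1.18 and 1.46 on the C57 saline arrays and between 0.45 and 0.72 in C57 room air. On the C57 LPS arrays they lay between -0.23 and 0.25. In AKR they lay between -1.19 and -0.78 with saline, between -0.27 and -0.04 in room air at 3 weeks, and between -0.52 and 0.55 with LPS. From saline to LPS after air, 7 of 8 B cell markers fell in C57 (median difference -1.55), while in AKR 1 of 8 rose and 0 fell (median 0.78). Of all genes, 4.3% fell in C57, and 9.45% rose and 7.41% fell in AKR. The strain by LPS interaction after air passed for 8 of 8 B cell markers and 1.14% of all genes. Of the 7 T cell markers tested, 0 rose and 1 fell with LPS after air in C57, 6 rose in AKR, and 1 passed the interaction. In that interaction 7 of 7 had an unadjusted p under 0.05 in limma, as did 1651 of the 14705 genes tested. From room air to saline, 0 of 8 B cell markers passed in C57 and 1 of 8 fell in AKR, where 0.558% of all genes fell. In C57, 6 of 8 had an unadjusted p under 0.05 in limma, as did 907 of the 14705 genes tested. The 7 T cell markers lay between 0.41 and 0.58 on C57 saline arrays and between -0.70 and -0.51 on AKR saline arrays. In whole lung, fewer cells of a type and less RNA per cell cannot be told apart. The part of lymphocytes, or of the other cell types, in the Rel values was not tested.

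**Figure D2:**
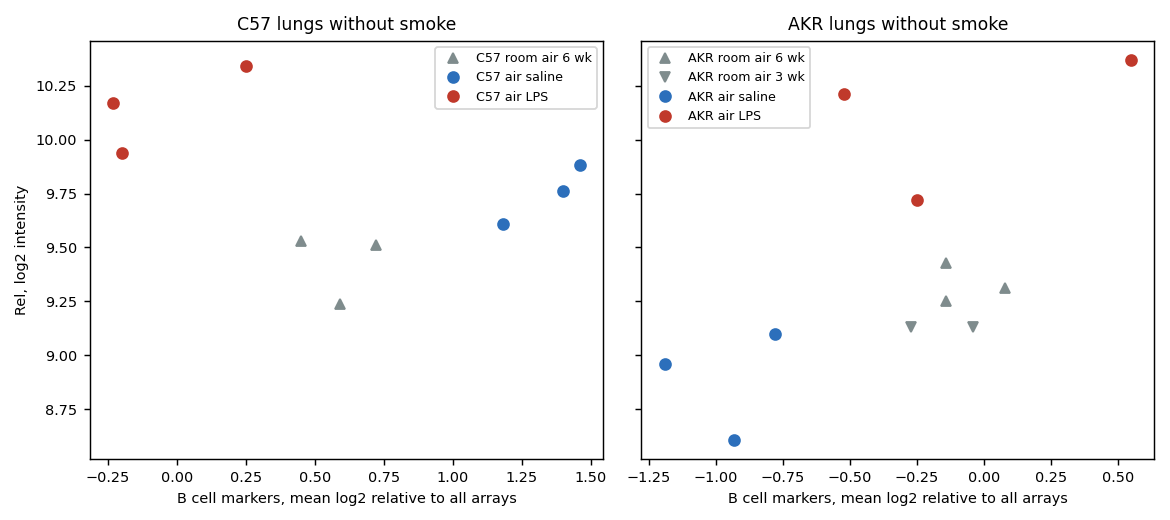
Rel log2 intensity (y axis) against the mean of 8 B cell markers relative to all arrays (x axis) in C57 (left) and AKR (right) lungs without smoke, 1 point per array. The C57 saline arrays lie at the right, between 1.18 and 1.46, and the AKR saline arrays at the left, between -1.19 and -0.78, with the LPS arrays of both strains at the top. The T cell, neutrophil, and monocyte and macrophage markers, not plotted, moved from room air to saline in the same directions.

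The IkB family members rose in both strains after air. Nfkbia (probe set 10400405, chr12:55489409-55492647) encodes IkB alpha, the inhibitor that is destroyed first and resynthesized as an early NF-kB target. It was 10.55, 10.36 and 10.53 with saline and 12.13, 11.86 and 11.91 with LPS in C57, and 10.13, 10.70 and 10.18 with saline and 12.38, 12.30 and 11.77 with LPS in AKR. Saline and LPS arrays were well apart in both strains. The difference was 1.49 ± 0.32 in C57 (2.81-fold, adjusted p = 0.006) and 1.81 ± 0.32 in AKR (3.51-fold, adjusted p = 0.00058). After smoke it was 1.89 ± 0.36 in AKR (adjusted p = 0.00052) and 1.69 ± 0.20 in C57 without the pair (adjusted p = 2.1e-06, limma).

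Nfkbiz (probe set 10439936, chr16:55811375-55838954) encodes IkB zeta, a nuclear IkB protein needed for a later wave of target genes that includes Il6. It was 8.48, 8.37 and 8.65 with saline and 9.69, 9.25 and 9.57 with LPS in C57. The AKR values were 8.44, 8.62 and 8.38 with saline and 10.69, 10.33 and 9.85 with LPS. The groups were separate in both strains, and the AKR LPS arrays were spread more widely than the C57 ones. The difference was 1.00 ± 0.33 in C57 (2-fold, adjusted p = 0.039) and 1.81 ± 0.33 in AKR (3.5-fold, adjusted p = 0.00062). The C57 call depended on single arrays and on normalization, with an adjusted p of 0.097, 0.11 and 0.067 without saline array 1, 2 or 3, 0.099 and 0.098 without LPS array 1 or 3, and 0.051 after quantile normalization of all arrays. Without the pair its adjusted p was 0.00064 (limma).

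Bcl3 (probe set 10560685, chr7:19808462-19822824), a nuclear IkB protein that binds dimers of the NF-kB subunits without a transactivation domain, was 8.47, 8.44 and 8.58 with saline and 10.09, 10.15 and 10.26 with LPS in C57. In AKR it was 8.71, 8.62 and 9.06 with saline and 10.59, 10.58 and 10.22 with LPS. The groups were separate in both strains. Its differences after air were almost the same, 1.67 ± 0.31 in C57 (3.19-fold, adjusted p = 0.0037) and 1.66 ± 0.31 in AKR (3.17-fold, adjusted p = 0.00087). After smoke in AKR it was 2.15 ± 0.35 (adjusted p = 0.00013, limma).

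Tnfaip3 and Tnfaip2 had the largest differences of the 9 members after air in both strains and after smoke in AKR. Tnfaip3 (probe set 10368144, chr10:19000910-19015410) encodes A20, which edits ubiquitin chains on signalling proteins upstream of IKK and so shuts the pathway down. In C57 it was 7.91, 7.94 and 8.06 with saline and 10.50, 10.22 and 10.45 with LPS. For AKR they were 7.14, 7.64 and 7.41 with saline and 10.97, 11.03 and 9.99 with LPS. The LPS arrays lay far above the saline arrays in each strain, and AKR air LPS 3 was the lowest of its group. The difference was 2.41 ± 0.52 in C57 (5.33-fold, adjusted p = 0.0056) and 3.27 ± 0.52 in AKR (9.64-fold, adjusted p = 0.00021).

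Tnfaip2 (probe set 10398665, chr12:111442450-111455018) is a target that TNF and LPS induce in endothelial and myeloid cells. It was 8.84, 8.93 and 8.81 with saline and 11.69, 11.20 and 11.59 with LPS in C57, and 8.72, 8.64 and 8.64 with saline and 12.38, 12.32 and 11.65 with LPS in AKR. Its saline arrays were tight in both strains and the LPS arrays far above them. The difference was 2.63 ± 0.53 in C57 (6.21-fold, adjusted p = 0.0046) and 3.45 ± 0.53 in AKR (10.9-fold, adjusted p = 0.00018). After smoke in AKR, Tnfaip3 differed by 3.35 ± 0.58 (10.2-fold, adjusted p = 2e-04) and Tnfaip2 by 3.14 ± 0.60 (8.79-fold, adjusted p = 5e-04). In C57 after smoke without the pair, they differed by 2.76 ± 0.24 (adjusted p = 3e-08) and 2.80 ± 0.24 (adjusted p = 1.8e-08, limma).

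Socs3 (probe set 10393449, chr11:117966079-117970336) encodes a feedback inhibitor of IL-6 family receptors and JAK kinases, itself a STAT3 target. It was 8.09, 7.90 and 7.96 with saline and 10.31, 9.59 and 9.91 with LPS in C57. In AKR it was 8.36, 8.84 and 9.37 with saline and 11.44, 10.91 and 10.38 with LPS. The AKR saline arrays were widely spread, and the highest of them, AKR air saline 3, also had a Saa3 log2 intensity of 8.949 where the other 2 had 6.223 and 6.375. The LPS arrays stood clear of the saline arrays in both strains. The difference was 1.95 ± 0.43 in C57 (3.87-fold, adjusted p = 0.0061), 2.05 ± 0.43 in AKR after air (4.15-fold, adjusted p = 0.002) and 2.72 ± 0.48 in AKR after smoke (6.61-fold, adjusted p = 0.00025).

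In C57 after smoke the arrays themselves show what the pair does. Tnfaip3 was 7.95 and 8.05 on the smoke saline arrays 1 and 2 and 10.12 on the array labelled 3, and it was 11.06 and 10.45 on the smoke LPS arrays 1 and 2 and 8.01 on the array labelled 3. Socs3 ran 8.11, 8.13 and 9.48 with saline and 10.58, 9.94 and 8.02 with LPS. Nfkbia ran 10.45, 10.60 and 11.80 with saline and 12.36, 12.05 and 10.60 with LPS. The groups overlapped for 9 of 9 members with the pair, and the share of all genes that overlapped was not counted. With the pair the differences lay between 0.48 (Rel) and 1.14 (Tnfaip3) with adjusted p from 0.56 to 0.58 in limma. Without it, Rel differed by 0.87 ± 0.20 (adjusted p = 0.0033), Nfkbiz by 1.46 ± 0.24 (adjusted p = 0.00013), Relb by 1.29 ± 0.13 (adjusted p = 3.3e-07), Bcl3 by 1.59 ± 0.19 (adjusted p = 1.9e-06) and Socs3 by 2.14 ± 0.29 (adjusted p = 1.3e-05, limma).

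**Figure D3:**
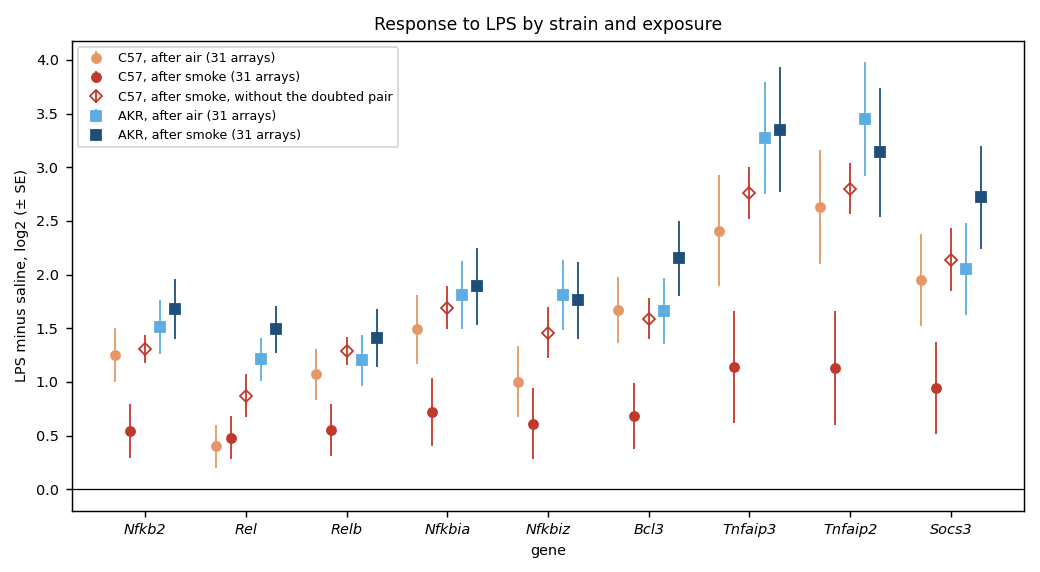
LPS minus saline for each gene on the log2 scale, with standard errors from the limma fit, after air or smoke in each strain (filled symbols, all 31 arrays) and after smoke in C57 without the pair of arrays that go against their labels (open diamonds). Tnfaip3 and Tnfaip2 have the largest differences after air, Rel after air in C57 the smallest at 0.40, and the filled C57 smoke points lie between 0.48 and 1.14.

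No member passed the test of a difference between the strains in the response to LPS, a test in which strain and array set cannot be told apart. After room air, the response of AKR exceeded that of C57 by 0.81 ± 0.28 for Rel (adjusted p = 0.22), 0.81 ± 0.46 for Nfkbiz (adjusted p = 0.55), 0.86 ± 0.73 for Tnfaip3 (adjusted p = 0.74) and 0.81 ± 0.76 for Tnfaip2 (adjusted p = 0.78). Bcl3, Socs3 and Relb had differences of -0.01 ± 0.44, 0.10 ± 0.61 and 0.13 ± 0.34. In limma 1 of 9 members, Rel, had an unadjusted p under 0.05, as did 1651 of the 14705 genes tested. After adjustment 0 of 9 members passed, and 1.14% of all genes did. Without the pair it was 0 of 9 against 2.73%, with an adjusted p of 0.064 for Rel. The median over the members was 0.32, and -0.04 over all genes. Against room air alone, the excess of the AKR response for Rel was 0.24 ± 0.30 (adjusted p = 0.68), and 0 of 9 members passed. The share of all genes passing the strain test with that reference was not counted.

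**Figure D4:**
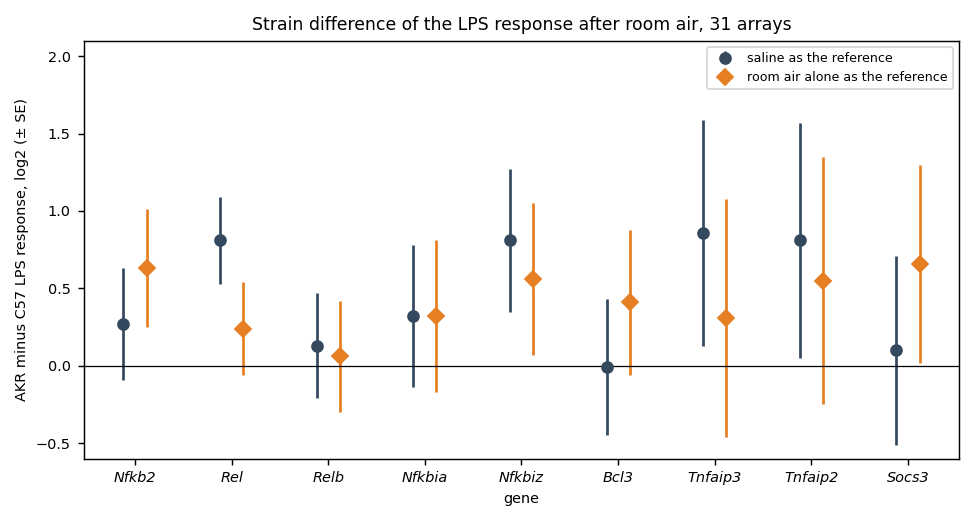
AKR response to LPS minus C57 response after room air for each gene, log2 with standard errors from all 31 arrays, with saline (circles) or room air alone (diamonds) as the reference. The Rel point moves from 0.81 to 0.24 when the reference changes, while the Bcl3 point moves from -0.01 to 0.41.

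After smoke, the AKR response exceeded the C57 response for all 9 members with the pair included, by a median of 1.17. An unadjusted p under 0.05 in limma was found for 9 of 9, and for 2727 of the 14705 genes tested. None of the 9 passed in limma, the lowest adjusted p being 0.079 for Rel, where 1.82% of all genes did. Without the pair the median was 0.38 and 0 of 9 passed, against 0.918% of all genes. Leaving out C57 smoke LPS 1 alone, which leaves the array labelled C57 smoke LPS 3 as 1 of 2, gave 7 members, all but Relb and Nfkbia. Leaving out C57 smoke LPS 2 gave 1, Nfkb2, whose adjusted p rounds to 0.05. The share of all genes passing in these fits was not counted, so the counts cannot be set against it.

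No member passed the test of smoke against air. With saline, 0 of 9 passed in C57 (0% of all genes) and 0 of 9 in AKR (0.034% of all genes), and no member had an unadjusted p under 0.05. The median member difference was 0.47 in C57 with the pair and 0.02 without it, and -0.19 in AKR. In AKR, Nfkb2 was lower on every smoke array (8.85, 8.90 and 8.82) than on every air array (9.07, 9.15 and 9.0), a difference of -0.22 ± 0.25 (adjusted p = 0.99). Bcl3 was also lower on every AKR smoke array, by -0.42 ± 0.31 (adjusted p = 0.94), and 11.7% of all genes had no overlap there. In C57, Bcl3 and Socs3 lay higher on every smoke array with differences of 0.49 and 0.59 (adjusted p of 0.87 to 0.88), while 13.3% of all genes had no overlap. Without the pair these C57 differences were 0.16 and 0.13.

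With LPS, smoke against air gave 0 of 9 members in C57 (0% of all genes) and 0 of 9 in AKR (0.0068%), none with an unadjusted p under 0.05. The median was -0.30 in C57, 0.24 without the pair, and -0.01 in AKR. AKR Socs3 was 10.94 and 10.87 on the smoke LPS arrays, inside the range of the air LPS arrays. The interaction of smoke with LPS passed for 0 of 9 members in C57 and 0 of 9 in AKR, with 0% of all genes in either. In limma, 1 member in C57 and 0 in AKR had an unadjusted p under 0.05, against 1081 and 992 of the 14705 genes tested. The members' median interaction was -0.77 in C57, 0.20 without the pair, and 0.17 in AKR.

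No member passed the test of saline against room air, or of strain in room air. Saline against room air gave 0 of 9 members in C57 (0.0136% of all genes) and 0 of 9 in AKR (0.687%), none with an unadjusted p under 0.05. In C57, Rel was higher and Nfkb2 lower on every saline array, and 15.9% of all genes had no overlap. In AKR, 5 of 9 members did not overlap, Nfkb2 being higher and Rel, Nfkbiz, Tnfaip3 and Tnfaip2 lower with saline, against 41.7% of all genes with 2 room air arrays. The largest of these was Tnfaip3, whose saline arrays, listed above, stood against 7.80 and 7.98 in room air (difference -0.49, adjusted p = 0.69). Between the strains in room air at 6 weeks, 0 of 9 members passed against 2.69% of all genes, with differences from -0.10 (Rel) to 0.15 (Tnfaip2) and 0 of 9 at an unadjusted p under 0.05. The arrays of the strains overlapped for 9 of 9 members there, while 21.5% of all genes had no overlap.

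Within LPS groups, the members often shared their lowest or highest array. AKR air LPS 3 was the lowest of its group for 9 of 9 members, and C57 air LPS 2 for 8 of 9. C57 smoke LPS 1 was the highest of its group for 8 of 9, Relb being highest on array 2. In that group the array labelled 3 was the lowest for 9 of 9, so the highest could only be array 1 or 2. The share of all genes that were lowest or highest on these arrays was not counted. Over the 23 arrays of instilled mice, centred within strain, the correlation between members ran from 0.872 (Rel with Relb) to 0.992 (Nfkbia with Tnfaip3), a description in which the arrays share treatment and array set. The genes outside the group that followed a member most closely in that sense, the 2 with the highest r, were Ptafr and Il1rn for Tnfaip3 (both 0.993) and Nfkbie and Il1rn for Tnfaip2 (both 0.993). For Rel they were Cd53 and Cd69 (both 0.974), and Sbno2 was among the closest for Nfkb2 (0.988), Bcl3 (0.987), Socs3 (0.985) and Relb (0.979). Zc3h12a was among them for Nfkbia (0.986) and Relb (0.98), and Rnd1 and Vav1 for Nfkbiz (0.983 and 0.982).

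Markers of neutrophils and of monocytes and macrophages were also higher on the LPS arrays. After air, 3 of the 10 tested neutrophil markers rose in C57 (10 without the pair) and 10 of 10 in AKR, and 6 and 7 of 8 monocyte and macrophage markers rose. Of all genes, 11.5% rose in C57 (15.2% without the pair) and 9.45% in AKR. The B and T cell markers, with counts given above, did not rise in C57. The mean of the 10 of 12 neutrophil markers tested, relative to all arrays, lay between -0.67 and 0.07 on C57 air saline arrays and between 1.60 and 1.66 on C57 air LPS arrays, and between -1.56 and -1.37 and between 1.47 and 2.15 on the AKR ones. It was 1.33 on the array labelled C57 smoke saline 3 and -1.54 on the array labelled C57 smoke LPS 3. The 8 monocyte and macrophage markers tested lay between -0.22 and -0.04 with saline and 0.90 and 1.36 with LPS in C57, and between -1.05 and -0.87 and 0.27 and 0.91 in AKR. Their part in the members' values was not tested.

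Other genes of the pathway, taken from lists, rose in part. Of all genes, 11.5% rose and 4.3% fell after air in C57, and 9.45% rose and 7.41% fell in AKR. After smoke in AKR, 16.9% rose and 14.6% fell. Of the 5 other subunit and IkB genes, 4 rose after air in C57, 4 in AKR and 4 after smoke in AKR. The IkB gene Nfkbie rose by 1.86 ± 0.41 in C57 (adjusted p = 0.006) and 2.48 ± 0.41 in AKR (adjusted p = 0.00029), Nfkbid by 1.22 and 1.94, and Nfkbib by 1.16 and 0.99. Of the 11 tested genes of the LPS receptor and its adaptors, 7, 7 and 9 rose in those comparisons. Cd14, the LPS co-receptor, had the largest difference among them, 3.01 ± 0.61 in C57 (adjusted p = 0.0047) and 3.49 ± 0.61 in AKR after air (adjusted p = 0.00052), and the adaptor Myd88 differed by 1.13 and 1.24.

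The IKK complex and its kinases changed in a minority after air, with 4 of 12 tested genes rising in C57 and 4 in AKR, a median of 0.11 and 0.14. After smoke in AKR, 7 rose and 1 fell. Ikbke, an inducible IKK-related kinase, differed by 2.61 ± 0.56 in C57 (adjusted p = 0.0059) and 2.54 ± 0.56 in AKR (adjusted p = 0.0032), and Map3k8, the kinase that links this pathway to ERK, by 0.96 and 1.38. Of 20 other feedback inhibitors, 7 rose in C57 and 11 in AKR after air, and 11 after smoke in AKR. They included the A20-binding protein gene Tnip3 (3.06 ± 0.65 in C57 and 3.21 ± 0.65 in AKR, from saline means of 6.28 and 5.38 that lie below the 40th percentile of those arrays, the level asked of a tested gene), the RNase gene Zc3h12a (1.77 and 2.02) and the IRAK decoy gene Irak3 (1.52 and 2.26).

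Of the 16 tested genes of the IL-6 family, STAT3 and SOCS list, 10 rose in C57 and 11 in AKR after air, and 14 rose and 1 fell after smoke in AKR. Il6 differed by 3.25 ± 0.70 in C57 (adjusted p = 0.0058) and 5.0 ± 0.70 in AKR (adjusted p = 6.8e-05), from group means of 3.91 and 3.98 with saline. Those means too lie below the 40th percentile, so the sizes are differences from a low reference. For the STAT-induced kinase gene Pim1 the differences were 1.97 and 2.33. Socs1 was among the 3 largest differences in C57 (1.95 ± 0.41) and Il10ra in AKR (2.27 ± 0.32). After smoke in C57, 0 genes of these 5 lists passed in limma with the pair. In the order given, 2, 3, 3, 5 and 9 genes had an unadjusted p under 0.05, as did 1300 of the 14705 genes tested. Without the pair, 4 of the subunit and IkB genes, 7 of the receptor genes, 4 of the kinases (2 fell), 8 of the feedback inhibitors (1 fell) and 9 of the IL-6 family list rose. Of all genes, 10.9% rose and 9.79% fell there.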

How the data were processed

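The deposited values are log2 intensities per probe set, 35556 on each of 31 arrays, that the authors obtained with RMA, per the submitters' processing notes; its version is not given in the sources used here. RNA of lung tissue was labelled with biotin for Affymetrix arrays, per the labels. The platform annotation named the probe sets: 21789 carry 1 symbol, 1621 several, and 12146 are unnamed here. Of the Entrez identifiers, 99.6% matched RefSeq, which gave the coordinates (GRCm38.p6). Genes above the 40th percentile of an array on at least 3 arrays were tested.

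Differences came from a single limma fit of 11 group means to 31 arrays (20 residual degrees of freedom), with empirical Bayes moderation, two-sided, Benjamini-Hochberg adjusted over 14705 genes of a contrast. "Rose" and "fell" mean an adjusted p under 0.05. The fit was tested on simulated data. The members, the gene lists, the comparisons and the marker lists were chosen with earlier results of these data known. Named genes outside the members are the 3 of each list with the largest absolute difference, or the 2 most correlated with a member. The arrays labelled C57 smoke saline 3 and C57 smoke LPS 3 were kept and also left out. The room air reference for the LPS comparison within a strain, the strain by saline and strain by smoke interactions and the other Socs3 probe set were chosen after seeing the data. The number of arrays limits the precision. Software was R 4.3.3, limma 3.58.1, statmod 1.5.0, data.table (1.17.8), Python 3.11.15, pandas 2.3.3 and matplotlib 3.10.9.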

Additional observations from a re-analysis of the deposited data

Results flagged for a closer look

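Nfkb2 and Rel differed between saline and room air arrays with opposite signs in the strains and no overlap in either, where 15.9% of all genes in C57 and 41.7% in AKR had no overlap. Neither gene passed saline against room air: Nfkb2 had differences of -0.17 in C57 and 0.20 in AKR (adjusted p = 1 and 0.76, limma), and Rel 0.32 and -0.24 (adjusted p = 0.93 and 0.61). The saline effect of AKR minus that of C57 was 0.36 ± 0.38 for Nfkb2 (log2, adjusted p = 0.65, limma) and -0.57 ± 0.30 for Rel (adjusted p = 0.32, or 0.18 without the pair of arrays that go against their labels).

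Bcl3 lay higher on every C57 smoke saline array and lower on every AKR smoke saline array than with air, by 0.49 and -0.42 (adjusted p = 0.87 and 0.94, limma), where 13.3% and 11.7% of all genes had no overlap. The smoke effect of AKR minus that of C57 was -0.91 ± 0.44 (adjusted p = 0.96, limma), and -0.58 without the pair. These interaction tests were added after the values were seen, and none of the 3 passed.

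The other probe set of Socs3, 10383010, not used above because of its lower mean, gave smaller differences with LPS after air. They were 0.54 ± 0.16 in C57 (adjusted p = 0.03, limma) and 0.62 ± 0.16 in AKR (adjusted p = 0.012), where the probe set used gave 1.95 and 2.05. Both probe sets rose in both strains.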

How the results depend on the processing

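The count of members that rose with LPS after smoke in C57 went from 0 to 9 without the pair of arrays that go against their labels, and over leaving out 1 array at a time it ran from 0 to 9, reaching 9 without C57 smoke LPS 3. For the strain by LPS interaction after smoke, leaving out 1 array at a time gave 0 to 7 members, 7 without C57 smoke LPS 1 and 1 without C57 smoke LPS 2. After air in C57 the count was 7 to 8 over arrays left out, Nfkbiz being the member lost, and in AKR it was 9 throughout, after air and after smoke. No member reversed its direction in a comparison where it passed under any setting run. In AKR all 9 members kept their direction and their call for LPS in every setting run, which were a replicate block, only the arrays compared, no filter or a stricter one, quantile normalization, trended and robust moderation, the mean of a gene's probe sets, and arrays left out. Replicate numbers did not pair the arrays: the correlation of deviations had a median of -0.0194 over 146 same-number pairs and -0.00764 over 290 others. The replicate block gave 8 members in C57 and 9 in AKR for LPS after air, 0 in C57 and 9 in AKR after smoke, and 0 in the other comparisons. For the replicate block and the fits with 1 array left out, the share of all genes passing was not counted. Groups hold 2 or 3 arrays, which limits what the strain and smoke comparisons can detect.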
